A study of Mus musculus with 2 samples.

Results

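Bmp, Gdf and Nodal genes encode secreted ligands of the TGF-β superfamily, and 10 of them (Bmp2, Bmp3, Bmp4, Bmp5, Bmp6, Bmp7, Gdf5, Gdf6, Gdf7 and Nodal) were looked up by name in a list of H3K27me3 regions from mouse rib chondrocytes. H3K27me3, the trimethylated lysine 27 of histone H3, is placed by Polycomb repressive complex 2 and is found at silenced developmental genes. A gene counted as carrying the mark when at least 1 region of the list named it, which the list does for genes within 5000 bp of a region. Of the 10 genes, 4 were named (Bmp4, Gdf6, Gdf7 and Nodal) by 7 regions, out of 922 genes and 2017 regions in all. The other 6 genes were named by none. The study drew its genes carrying the mark from this series together with a second one that was not analysed here, so a gene named by no region is unlisted in this list only, and all counts and shares are those of this list. In a RefSeq table of 21896 protein-coding mouse genes, 3.90% were named by a region of the list. The 10 genes were chosen with earlier results of these data known, so that their share is a description and not evidence of a preference.

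The data were a single H3K27me3 ChIP library and a single input library, with no replicates. Both came from the same chondrocytes, isolated from the ribs of wt CD1 mice at postnatal day 2.5 (11 mice, pooled), kept overnight in DMEM with 5% FCS and penicillin/streptomycin, and taken at 90% confluence from 2 dishes of 10 cm. No mutant, treated or second cell type was measured by ChIP-seq in these files, and the input was a 2% sample of the same chromatin without antibody. The study's methods give a higher serum share and another kit number than the sample labels. The pooled mice make the library an average over animals and cells, in which a mark in few cells and a weak mark in many cells cannot be told apart. The regions held between 20 and 723 ChIP tags (mapped reads), and their ChIP profile reached a height of at least 8, so a weaker mark was not listed. The cell type label could not be checked by expression. The list was searched for 20 chondrocyte marker symbols, with Acan also under its older symbol Agc1. Of these symbols, 19 (among them Sox9, Col2a1 and Acan) were named by no region, and Ihh was named by 1 region 4579 bp upstream. As 3.90% of all protein-coding genes were named, this says nothing about the cell type.

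Ligands of this superfamily bind pairs of receptor kinases on the cell surface, which phosphorylate Smad proteins that then enter the nucleus and regulate target genes. Most Bmp and Gdf proteins signal through the Bmp-responsive Smads, whereas Nodal uses the activin-type receptors, the Smads shared with TGF-β and a co-receptor of the Cripto family. In cartilage, Bmp signalling is required for chondrocytes to form and to proliferate in the growth plate, Gdf5 and Gdf6 shape the joints, and Nodal is known for its role in the early embryo, where it induces mesoderm and sets the left-right axis.

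Nodal, Gdf7 and Bmp4 each had a region at most 2500 bp from the 5′ end. This held for 3 of the 10 ligand genes and for 2.20% of the protein-coding genes. It also held for 4 of 19 Wnt genes and for 8 of 30 Fgf, Hedgehog and Notch ligand genes. Among genes named by a region, it held for 481 of 855 protein-coding genes and for 3 of the 4 ligand genes. To show the sequence next to which the mark was found, the 250 bases before the RefSeq start of these 3 genes are given (build GRCm38.p6, 5′ to 3′ on the strand of the gene), with each CG dinucleotide in capitals. CG-rich DNA is the usual setting of Polycomb marks in mammals. These windows were not placed on mm9, the build of the regions. The windows are chr10:61417722-61417971 on the plus strand for Nodal, chr12:8301955-8302204 on the minus strand for Gdf7 and chr14:46390670-46390919 on the minus strand for Bmp4.
Nodal: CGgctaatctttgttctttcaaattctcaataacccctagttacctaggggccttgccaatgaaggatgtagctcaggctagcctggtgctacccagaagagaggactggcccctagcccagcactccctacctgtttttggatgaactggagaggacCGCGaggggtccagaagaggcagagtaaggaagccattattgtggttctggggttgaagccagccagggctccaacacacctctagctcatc
Gdf7: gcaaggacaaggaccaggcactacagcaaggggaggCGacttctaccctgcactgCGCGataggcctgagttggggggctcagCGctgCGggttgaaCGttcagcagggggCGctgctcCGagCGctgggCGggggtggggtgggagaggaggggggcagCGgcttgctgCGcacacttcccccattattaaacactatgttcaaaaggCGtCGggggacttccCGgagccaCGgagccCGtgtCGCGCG
Bmp4: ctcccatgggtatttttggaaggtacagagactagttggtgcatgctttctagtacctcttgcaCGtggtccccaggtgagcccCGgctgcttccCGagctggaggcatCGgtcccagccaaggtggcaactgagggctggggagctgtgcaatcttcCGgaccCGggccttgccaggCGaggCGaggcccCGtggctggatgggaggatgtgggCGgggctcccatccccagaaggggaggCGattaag

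The 3 upstream sequences differed in their CG content. The Nodal window held 3 CG dinucleotides in 250 bases, with 53.2% G or C. The Gdf7 window held 20, with 66.0% G or C, and the Bmp4 window held 11, with 63.2%. Of the 32851 windows of the same length in the table, 92.1% held at least 1 CG, and the median was 6. The Nodal window therefore lay below this median, with more CG than 29.0% of windows, while Gdf7 had more than 82.1% and Bmp4 more than 64.4%. CG reads the same on both strands, so both were counted at once. The table held windows for 5 of the 10 ligand genes and 73.4% of the listed genes. This coverage is incomplete for both, so a comparison of windows with and without a region was taken as void and is not given. Of the genes without a region, Bmp6 had 22 CG and Bmp5 had 4.

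Nodal carried the most regions among the 10 genes. On chromosome 10 (mm9) the regions ran from 60878341 to 60878900, from 60879307 to 60880665 and from 60880895 to 60881545, a span of 3204 bp with gaps of 407 and 230 bp. The 5′ end of Nodal, at 60880720 by the distances in the list, lay in the second gap. Relative to it, the regions covered -2379 to -1820, -1413 to -55 and 175 to 825 bp. Thus 2 regions were upstream and the third overlapped the gene. In that order they held 34, 75 and 38 ChIP tags. The input tags were 0, 8 and 4. The middle region had the most tags and the greatest length (1358 bp), but per length the regions were close to each other, at 60.8, 55.2 and 58.5 ChIP tags per kb. Over the 3 regions together the ratio of ChIP to input tags was 12.2 (95% Clopper-Pearson interval 6.81 to 24.2). This interval, like all those that follow, covers counting error only. Library totals are not part of the list, so no ratio here is corrected for depth. The ChIP profile was highest in the middle region, at 9.69, and its top lay at -715 bp. Among the 922 genes, 15.9% had at least 3 regions, and 70.0% had less sequence in regions than the 2567 bp of Nodal.

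**Figure D1:**
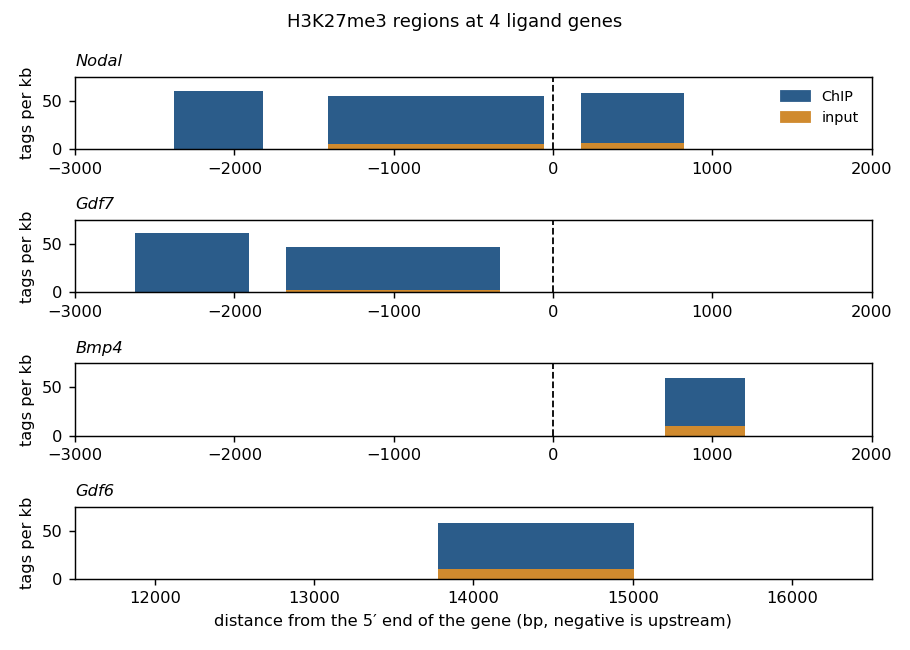
Position of the 7 regions relative to the 5′ end of each gene (x axis, bp; dashed line, 5′ end; the Gdf6 panel shows another stretch of the axis). The y axis gives tags per kb, with ChIP bars behind and input bars in front, both from 0. At Nodal the regions stand on both sides of the 5′ end, and at Gdf7 both are upstream. At Bmp4 and Gdf6 the single region overlaps the gene.

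Bmp4, a ligand close to Bmp2 in sequence and a regulator of limb and skeletal development, had 1 region. It ran from 47009072 to 47009570 on chromosome 14 (mm9), overlapping the gene, and began 704 bp downstream of the 5′ end. With 498 bp it was the shortest of the 7 regions, and only 10.7% of the list was shorter. It held 30 ChIP tags and 5 input tags, so the ratio was 6.0 (95% interval 2.31 to 19.8). The ChIP profile reached 8.22, close to the lowest height in the list, and 20.03% of regions were lower. Per length, however, its 60.2 ChIP tags per kb exceeded those of 80.7% of regions, and so did its input, at 10.0 tags per kb, compared with 81.9%. Nothing is known from the list about whether the region lies in an exon or an intron, since the list gives gene ends only.

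The other Bmp ligands among the 10 were not named by any region. Bmp2, an inducer of cartilage and bone, Bmp3, which opposes other Bmp proteins, and Bmp5, Bmp6 and Bmp7, a subgroup of closely related ligands, each had 0 regions. The list holds no tag counts outside regions, so no value can be given for them. A profile height below 8 at these genes would not have been listed. Their neighbouring genes were looked up as well. With 3.90% of all protein-coding genes named, neighbours mostly without a region are usual. Among the 3 protein-coding genes on either side of each of these 5 genes in RefSeq, Tfap2c next to Bmp7 had 2 regions, and Dsp, the third gene from Bmp6, had 1.

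Gdf7, a ligand made by the roof plate of the spinal cord and known in tendon, had 2 regions upstream of the gene on chromosome 12 (mm9). They ran from 8309096 to 8310439 and from 8310668 to 8311384, with a gap of 229 bp. The nearer one ended 336 bp upstream of the 5′ end and held 64 ChIP tags and 4 input tags, which gives 16.0 ChIP tags for each input tag (95% interval 5.95 to 60.5). The farther one, beginning 1908 bp upstream, held 44 ChIP tags and 0 input tags. A count of 0 allows up to 3 tags, which makes the ChIP tags at least 14.7-fold higher. The nearer region was longer (1343 against 716 bp) but had fewer ChIP tags per kb, 47.7 against 61.5. Its height of 8.08 was just above the lowest height in the list, whereas that of the farther region was 9.25. Together the Gdf7 regions held 108 ChIP and 4 input tags, with a ratio of 27 (95% interval 10.2 to 101).

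Gdf6, which is required for joints and vertebrae, had a single region that overlapped the gene far from its start. It ran from 9785299 to 9786530 on chromosome 4 (mm9) and began 13780 bp downstream of the 5′ end. It held 71 ChIP tags against 12 input tags, and the ratio was 5.92 (95% interval 3.19 to 11.99). Its height of 9.76 was the greatest of the 7 regions and above that of 84.0% of the list. Gdf5, the close relative of Gdf6 that marks developing joints, was named by no region. Fam83c, the second protein-coding gene from Gdf5 in RefSeq, had 1.

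**Figure D2:**
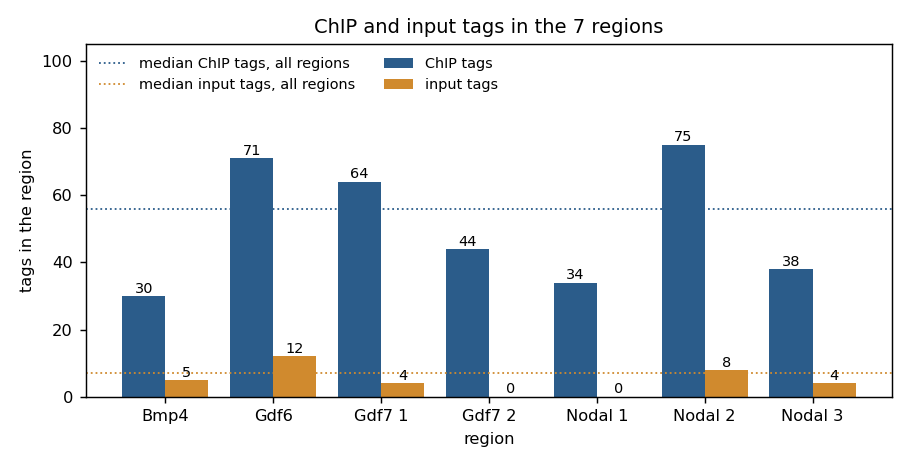
Number of ChIP and input tags (y axis, from 0) in each of the 7 regions (x axis), numbered along the chromosome where a gene has several. The dotted lines are the medians over all 2017 regions, 56 ChIP tags and 7 input tags. Gdf6, the first Gdf7 region and the second Nodal region stand above the ChIP median, and the other 4 regions stand below it.

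The 4 genes differed more in input than in ChIP signal, which is not particular to them. Over the 922 genes the lower and upper quartiles were 50.6 and 57.5 ChIP tags per kb, but 4.64 and 8.73 input tags per kb. All listed regions had reached the ChIP height limit, and how the caller used the input is not stated. Why the spreads differed was not tested. The inputs of the 4 genes also rest on only 4 to 12 tags each. ChIP tags per kb over the regions of a gene were 60.2 at Bmp4, 57.7 at Gdf6, 57.3 at Nodal and 52.5 at Gdf7. The median over the 922 genes was 54.0. Input tags per kb were 10.0 at Bmp4, 9.75 at Gdf6, 4.67 at Nodal and 1.94 at Gdf7, and the median over genes was 6.49. Of the 922 genes, 6.40% had less input per kb than Gdf7. The order of the ratios, with Gdf7 at 27 and Nodal at 12.2 above Bmp4 at 6.0 and Gdf6 at 5.92, put the 2 genes with the lowest input first. The 95% intervals of the 4 genes overlapped pairwise, and the differences between them were not tested. That of Gdf7, which rests on 4 input tags, lay above the 7.47 of all regions together (95% interval 7.36 to 7.58). Those of the other 3 genes included it. How many of the 922 genes have such an interval was not counted, so this does not set Gdf7 apart.

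The deposited tag enrichment replaces a low input by a floor, found from the values to be 9.21 tags per kb, and 5 of the 7 regions rested on this floor. With it the genes came close together, at 6.22 for Nodal, 6.0 for Bmp4, 5.92 for Gdf6 and 5.70 for Gdf7. Gdf7 thus moved from the highest to the lowest of the 4 genes. Over all 7 regions together, the ratio was 10.8 with the measured input (95% interval 7.54 to 15.9) and 5.97 with the floor. The median over the 922 genes with the same floor was 5.62, so all 4 lay above it, Nodal above 81.5% of genes and Gdf7 above 55.7%. All regions of Nodal and Gdf7 were on the floor, so their values follow from ChIP tags per kb alone. By ChIP tags per kb, Nodal lay above 72.8% of genes and Gdf7 above only 40.5%.

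**Figure D3:**
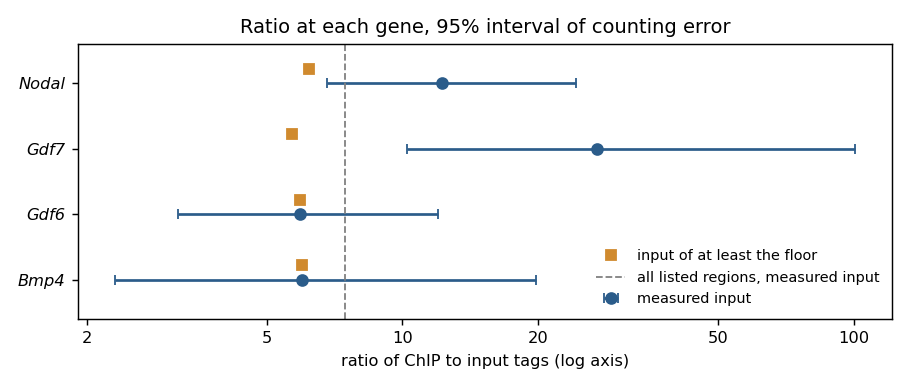
Ratio of ChIP to input tags (x axis, log scale) over the regions of each gene (y axis). Circles use the measured input, with bars for the 95% Clopper-Pearson interval of counting error, and squares set the input of each region to at least 9.21 tags per kb. The dashed line is the ratio of all 2017 regions with measured input, 7.47. Among the bars shown, only that of Gdf7, with 4 input tags, lies wholly to its right. The squares lie between 5.70 and 6.22.

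Compared with the whole list, 4 of the 7 regions were shorter than the median region. Their lengths ran from 498 to 1358 bp with a median of 716 bp, and the median of all regions was 1066 bp. Their heights ran from 8.08 to 9.76 with a median of 9.21, and 4 of the 7 were above the median of all regions, 8.68. None reached 10, as did 13.1% of all regions, a share too small for 7 regions to show a difference. Of the 7 regions, 6 had more ChIP tags per kb than the median region, which had 54.5. No comparison was made at matched length, and 4 of the 7 were shorter than the median region. The −log10 q-values of the caller ran from 29.3 at Bmp4 to 66.6 at Gdf6, with a median of 48.0 over all regions. Of the 7 regions, 3 overlapped the gene and 4 lay upstream of it. Among all 1284 regions that named a gene, 65.5% overlapped it.

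**Figure D4:**
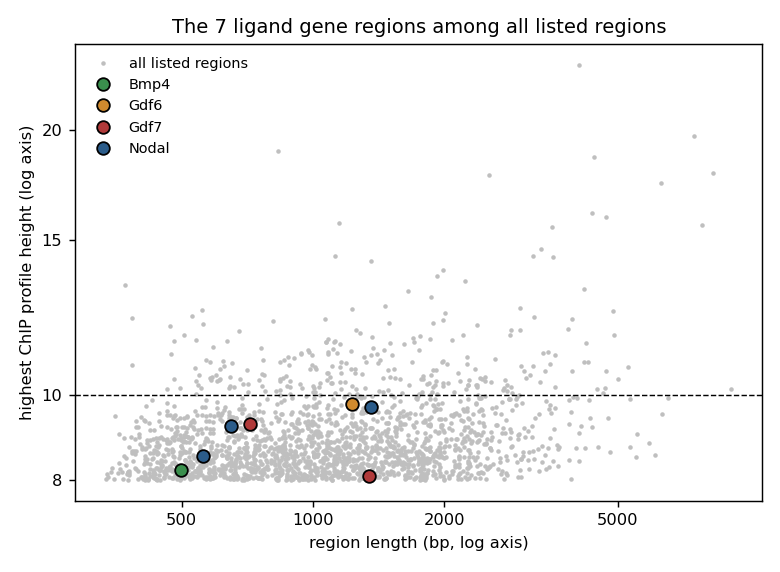
Length (x axis, bp, log scale) and highest ChIP profile height (y axis, log scale) of the 2017 listed regions (grey) and of the 7 regions at Bmp4, Gdf6, Gdf7 and Nodal (coloured). The dashed line marks a height of 10, and all 7 coloured points lie below it.

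The regions of each of these 4 genes lay farther from the next listed region than those of most listed genes. The nearest listed region that did not name the same gene was 575990 bp away for Nodal, 1270313 bp for Gdf7, 1531439 bp for Gdf6 and 2261604 bp for Bmp4. The median distance over the 922 genes was 102986 bp, and 75.5% of genes had a nearer neighbour than Nodal and 91.1% a nearer one than Bmp4. No other gene was named by any of the 7 regions. Of the 24 nearest protein-coding genes in RefSeq, 3 on either side of each of the 4 genes, 0 were named by a region. Across all 60 such neighbours of the 10 ligand genes, 3 were. With 3.90% of all protein-coding genes named, few of any such neighbours would be, so these counts show no trait of the loci.

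The remaining members of the pathway were examined by lists of genes. Of 23 other ligands of the superfamily, including the 3 Tgfb genes, the activin subunits, Mstn and the Lefty genes, 2 were named, the paralogs Bmp8a and Bmp8b on chromosome 4. Bmp8b had 2 regions with 71 ChIP and 12 input tags in all and a ratio of 5.92 (95% interval 3.19 to 11.99). The nearest of these was 2758 bp from the 5′ end. Bmp8a had 1 region overlapping the gene, with 38 ChIP and 4 input tags, 20261 bp from the 5′ end. How reads that match both copies were placed is not stated, so the split between them is uncertain.

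Receptors, Smads and antagonists were examined next, and their counts are read against the 3.90% of protein-coding genes named. None of the 12 receptor genes and none of the 8 Smad genes were named by a region. Of 7 co-receptor genes, 1 was named, Hfe2 (hemojuvelin, a Bmp co-receptor in iron metabolism), with 126 ChIP and 17 input tags in 2 regions. Of 17 genes listed as antagonists, among them Nog, Chrd and Grem1, 1 was named, Sost. It encodes sclerostin, an inhibitor made in bone that blocks Wnt signalling. The 2 Sost regions held 140 ChIP and 6 input tags and had a ratio of 23.3 (95% interval 10.5 to 64.7), and the larger one began 20 bp from the 5′ end.

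Target genes of the pathway are often transcription factors that pattern the embryo. In a list of 11 targets and Nodal cofactors, the Bmp-induced homeobox genes Msx2 and Dlx5 had 2 regions and 1 region, with 208 and 31 ChIP tags and 24 and 4 input tags. Msx1, a relative of Msx2, had 1 region with 46 ChIP tags and 0 input tags, at least 15.3-fold. The Id genes, Hey1, Runx2 and the Nodal cofactor Foxh1 had none. Over all 78 genes of these lists, 8 were named (10.3%), and the background over protein-coding genes is the 3.90% given above.

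Among signalling ligands of other families, 8 of 19 Wnt genes (42.1%) and 11 of 30 Fgf, Hedgehog and Notch ligand genes (36.7%) were named. Of the 10 Bmp, Gdf and Nodal genes, 4 were named (40.0%), and of all protein-coding genes 3.90%. The 10 genes are a chosen part of their superfamily, and of its 23 other ligands 2 were named (8.70%). The 40.0% is therefore not the share of a whole family. The Wnt genes were Wnt1, Wnt3, Wnt3a, Wnt6, Wnt7a, Wnt7b, Wnt9a and Wnt10a. The others were Fgf3, Fgf4, Fgf9, Fgf11, Fgf12, Shh, Ihh, Dll1, Dll3, Dll4 and Jag2. A height of 10 was reached by 8 of 20 regions at the Wnt genes, by 3 of 13 at the Fgf, Hedgehog and Notch ligand genes, by 0 of 7 here and by 13.1% of all regions. The median heights were close to each other, at 9.34, 8.99 and 9.21 in the same order, and the lists were not tested against each other.

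**Figure D5:**
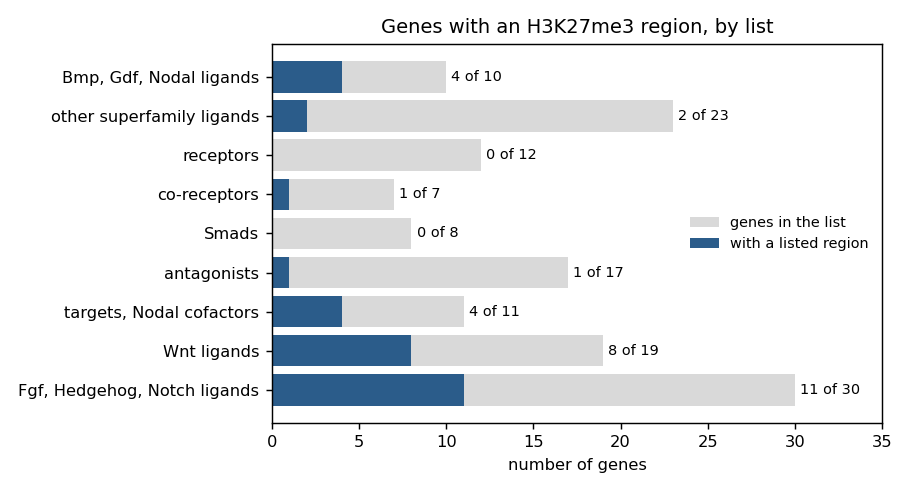
Number of genes in each list (grey, x axis) and the number of them named by at least 1 H3K27me3 region (blue). The 10 Bmp, Gdf and Nodal ligand genes are at the top with 4 named, while the 12 receptors and 8 Smads have 0.

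By number of regions, base pairs in regions and pooled ratio, the genes most like Nodal were Flt4, Irx6, Nkx2-6, Hoxc13 and Mapk11, in order of the sum of rank differences over the 881 genes with at least 1 input tag. Each had 3 regions. Flt4 was the closest, with 2469 bp, 134 ChIP tags, 11 input tags and a ratio of 12.2.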

How the data were processed

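H3K27me3 ChIP DNA and input DNA of 1 culture of pooled wild-type rib chondrocytes were sequenced. By the series' design text and labels, the authors mapped the reads with the DNAnexus mapper to mm9 and called regions with QuEST. Versions and settings are not given in the sources used here. Per the file headers, the deposited list gives for each region whole-number counts of ChIP and input tags, unscaled. It also gives the signal height of the smoothed profile, for which the authors' scaling is not stated. The deposited ratio (tag enrichment) divides ChIP by input tags, with input of at least 9.21 tags per kb in 1552 regions. The q-values are deposited as −log10. Whether positions count from 0 or 1 is not stated.

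From the list, regions were selected by gene name, and all 10 ligand genes are named in the text, as are the genes of the other lists that a region names, except for 1 item that is not reported here (examples of the rest are given by name). The members and lists were chosen with earlier results of these data known. With 1 library of each kind no test was possible. Ratios carry 95% Clopper-Pearson intervals, and a region with 0 input tags is compared with 3 tags. Tags are not independent molecules, so both cover counting error only. The intervals were checked on simulated independent counts, which does not test them for dependent tags or for regions chosen by height. Of 922 gene names, 912 matched RefSeq (GRCm38.p6) by symbol or synonym. That table was used for names and gene order only, strand was taken from the promoter table, and positions were not compared between builds. The 5 genes most like Nodal were found by the sum of rank differences in number of regions, bp and ratio. Alternatives were a height of at least 10, a −log10 q-value of at least 30, overlap with the gene, 2500 bp or 1000 bp from the 5′ end, merging within 3000 bp and the input floor. Values were computed in Python (3.11.15) with scipy (1.17.1), pandas (2.3.3) and numpy (2.4.6), and plotted with matplotlib (3.10.9).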

Additional observations from a re-analysis of the deposited data

How the results depend on the processing

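Of 36 values recomputed under an alternative, 23 stayed within 1.5 times the main count or inside the main value's interval. Of the counts, bp and pooled ratios, 12 stayed and 11 moved. Of the ratios at single genes, 11 stayed and 2 moved. Most of these ratios could not change, because the alternative kept every region of the gene or the input was already above the floor. With a ChIP height of at least 10, 0 of the 10 ligand genes, 0 regions and 0 bp remained, also within 2500 bp of the 5′ end and for the other superfamily ligands, and 1 gene of the other pathway lists remained of 6, so the counts depend on where the caller set its height limit. With only regions overlapping the gene, 3 regions with 2379 bp were left and the pooled ratio fell from 10.8 to 6.62, since both Gdf7 regions and the 2 upstream Nodal regions drop out. Merging regions within 3000 bp gave 4 regions, 1 for each gene. With input set to at least the floor, the pooled ratio was 5.97, and the ratios at Gdf7 and Nodal fell out of their intervals, to 5.70 and 6.22. A −log10 q-value of at least 30 left out Bmp4, leaving 3 genes. No paired analysis was possible because each group holds 1 library. The depth limits the values: with 0 to 12 input tags in a region the ratios are imprecise, and genes without a region have no tag count.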
